A study of Mus musculus with 2 samples.

Results

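The genes described here are regulators, receptors, membrane proteins and the heme enzyme that mark red cell precursors, measured in RNA from embryonic mouse midbrain. They were chosen by name (Gata1, Klf1, Nfe2, Epor, Tfrc, Slc4a1, Epb42, Alas2 and Ahsp), and their rows were found by matching gene identifiers to the mouse gene annotation. Of the 9 symbols, 8 matched 1 gene each among the 43346 genes of the tables, and Ahsp is not analysed here. The series holds total RNA-seq of whole midbrain from healthy B6NCrl embryos at 11.5 days, with 1 group, no treatment and 2 biological replicates. Midbrains of 109 embryos were combined for replicate 1 and those of 88 for replicate 2, with both sexes in each pool, so neither library describes a single embryo. The input was 10 ng of RNA above 200 nt per library, and ERCC spike-ins (synthetic RNAs in known amounts) were added.

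Red blood cells are made from progenitors whose survival depends on the hormone erythropoietin and its receptor. The transcription factors Gata1 and Klf1 then switch on the globins, the enzymes of heme synthesis and the proteins of the red cell membrane, while the transferrin receptor brings in the iron that heme holds. At mid-gestation much of the circulating blood consists of nucleated red cells that came from the yolk sac, and such cells still contain RNA. A whole midbrain is dissected with its blood vessels, and the tables do not separate blood from neural tissue.

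Iron controls the mRNAs of Alas2 and Tfrc through hairpins called iron-responsive elements, which iron regulatory proteins bind. A hairpin in the 5′ UTR is known to block translation when bound, and hairpins in the 3′ UTR are known to protect the mRNA from decay. Annotated transcripts were searched for a C bulge, 5 paired bases and the loop CAGTGN, and only transcripts of Alas2 and Tfrc held a match among the 37 annotated transcripts of the 8 genes. Among 58797 coding transcripts of the annotation, 0.961% held one. The match in the 5′ UTR of Alas2-201 spans a splice junction (chrX:150547458-150547485 and the single base at 150552149, plus strand). Tfrc-201 held 4 matches in its 3′ UTR (chr16:32631219-32631247, chr16:32631598-32631626, chr16:32631663-32631691 and chr16:32631710-32631738, plus strand, in that order). All coordinates are on mm10. The sequences are shown because Alas2 and Tfrc were the members with the highest levels and because their transcripts differ in whether they carry the hairpins. Capitals mark the loop.
Alas2-201: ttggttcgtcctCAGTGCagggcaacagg
Tfrc-201, match 1: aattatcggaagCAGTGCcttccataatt
Tfrc-201, match 2: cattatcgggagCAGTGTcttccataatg
Tfrc-201, match 3: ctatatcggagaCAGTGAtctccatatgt
Tfrc-201, match 4: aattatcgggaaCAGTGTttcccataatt

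All 8 genes reached 1 TPM (a relative transcript abundance that corrects for length) in both libraries, as did 32.1% of all genes in the tables. Their levels spanned from 2.775 TPM for Epor to 67.6 TPM for Tfrc, with a median of 7.995 TPM beside a median of 16.4 TPM over the 13895 genes detected in both libraries. Tfrc lay above 82.7% of the detected genes, Alas2 above 72.9% and Slc4a1 above 59.4%. The other 5 lay in the lower part of the range, Klf1 above 39.8% and Epor above 13.8% of detected genes. Levels followed the order Tfrc, Alas2, Slc4a1, Klf1, Nfe2, Epb42, Gata1 and Epor. Genes were called separated where the TPM intervals deposited with the tables lay apart in each library, in 1 direction. Of the 28 pairs that the 8 genes form, 25 were separated. The 3 exceptions were neighbours in the order: Nfe2 and Epb42, Epb42 and Gata1, and Gata1 and Epor, of which the last was separated in replicate 1 only. The iron receptor and the enzyme that starts heme synthesis thus stood above the membrane and regulatory genes, and the erythropoietin receptor was last. On coding transcripts alone, Epb42 had a mean of 1.49 TPM and took the last place, below Epor. In a bulk sample, fewer cells of a type and less RNA per cell cannot be told apart, so no level here says how many red cells the tissue held.

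**Figure D1:**
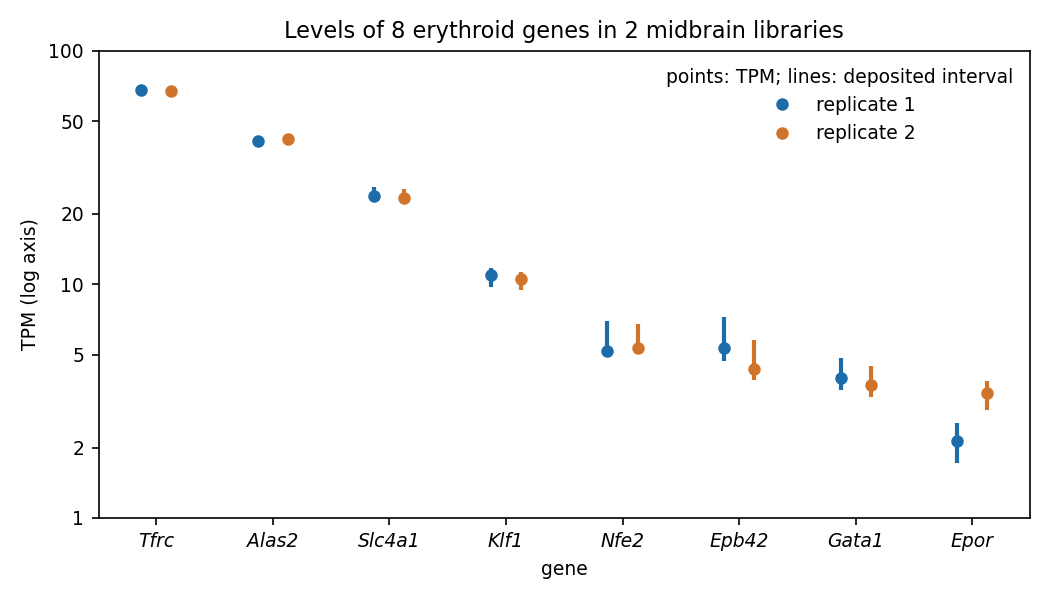
TPM of each gene on a log axis in replicate 1 (blue) and replicate 2 (orange), with the deposited interval of each value as a line. Tfrc sits at 68.14 TPM in replicate 1 and 67.13 TPM in replicate 2, and Epor is the gene whose intervals stand apart, at 2.14 TPM in replicate 1 and 3.41 TPM in replicate 2.

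Gata1 is the zinc finger factor that drives erythroid and megakaryocytic genes (ENSMUSG00000031162, chrX:7959260-7978071, minus strand). It had 3.98 TPM in replicate 1 on 189 expected counts and 3.7 TPM in replicate 2 on 210 (mean 3.84 ± 0.198 TPM, SD, n = 2). The deposited intervals, 3.51 to 4.82 TPM and 3.29 to 4.46 TPM, overlapped. Gata1 was the lower gene beside both relatives examined. Gata2, which acts in blood progenitors and also in midbrain neurons, had 14.87 TPM in replicate 1 and 14.98 TPM in replicate 2, 3.82-fold above Gata1 on TPM + 0.1. Gata3, known from T cells and from neurons, was 6.72-fold above Gata1, with 26.52 and 26.19 TPM. Tal1, a bHLH factor that joins Gata1 in erythroid complexes and is also known from midbrain neurons, was 3.73-fold above it, with 15.05 and 14.13 TPM. Zfpm1 (Fog1), the cofactor that Gata1 binds, was the only one of the 4 genes below it, with 1.23 and 1.41 TPM against the 3.98 and 3.7 TPM of Gata1, a 2.78-fold difference.

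Klf1 is the Krüppel-like factor that activates adult beta globin and many red cell genes (ENSMUSG00000054191, chr8:84901928-84905291, plus strand). It had 10.93 TPM in replicate 1 on 420 counts and 10.53 TPM in replicate 2 on 484 (mean 10.7 ± 0.283 TPM, SD, n = 2), and the intervals of 9.69 to 11.74 TPM and 9.42 to 11.27 TPM overlapped widely. Klf1 was the most abundant of the 3 regulators, separated from both Gata1 and Nfe2. It stood 2.43-fold above Klf2, a factor of endothelium and primitive red cells that had 3.83 and 4.97 TPM. Klf3, a repressor that binds the same CACC motif, stood 1.53-fold above Klf1, with 16.93 and 16.1 TPM. Bcl11a, a globin repressor that Klf1 activates in red cells and that neurons also express, stood 3.06-fold above Klf1, with 33.47 and 32.6 TPM.

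Nfe2 is the large subunit of the NF-E2 factor of red cells and platelets (ENSMUSG00000058794, chr15:103248212-103258403, minus strand). It had 5.19 TPM in replicate 1 on 215 counts and 5.33 TPM in replicate 2 on 248 (mean 5.26 ± 0.0990 TPM, SD, n = 2), with intervals of 4.97 to 6.94 TPM and 5.02 to 6.76 TPM. The broadly expressed relatives were higher in both libraries: Nfe2l1 by 4.78-fold (23.93 and 27.23 TPM) and Nfe2l2 by 4.20-fold (24.24 and 20.74 TPM). Among the small Maf proteins that pair with Nfe2 to bind DNA, Mafk lay below it (3.81 and 3.89 TPM, Nfe2 1.36-fold higher). Mafg lay 2.68-fold above Nfe2, with 13.6 and 14.98 TPM. Each of the 3 regulators thus had at least 1 relative at a higher level.

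Epor encodes the erythropoietin receptor (ENSMUSG00000006235, chr9:21958897-21963506, minus strand). It had 2.14 TPM in replicate 1 on 99 counts and 3.41 TPM in replicate 2 on 189 (mean 2.775 ± 0.898 TPM, SD, n = 2). Its intervals, 1.71 to 2.54 TPM and 2.89 to 3.86 TPM, lay apart. Epo, the hormone itself, had 0.55 TPM on 9 counts in replicate 1 and 1.07 TPM on 22.03 counts in replicate 2. Epor stood 3.22-fold above Epo on TPM + 0.1, which fell to 2.08-fold on TPM + 1. Both genes had the lower value in replicate 1, but the intervals of Epo overlapped. Its difference did not pass (adjusted p = 0.151 by the exact binomial test between the pools). The stem cell factor receptor Kit stood 4.90-fold above Epor, with 13.8 and 13.49 TPM.

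Tfrc encodes transferrin receptor 1, through which cells take up iron-loaded transferrin (ENSMUSG00000022797, chr16:32608920-32632794, plus strand). It had 68.14 TPM in replicate 1 on 7492 counts and 67.13 TPM in replicate 2 on 8640 (mean 67.6 ± 0.714 TPM, SD, n = 2), with overlapping intervals of 65.05 to 69.99 TPM and 64.29 to 69.20 TPM. Tfrc is not specific to red cells, since dividing cells of most kinds and the vessels of the brain also use it. Its relative Tfr2, a transferrin sensor of liver and red cell precursors, had 1.06 TPM in replicate 1 and 0.98 TPM in replicate 2. The fold between them was 60.5 on TPM + 0.1 and 34.0 on TPM + 1, the widest gap among the 22 pairs examined. Trf, the iron carrier that Tfrc binds, had 14.61 and 15.23 TPM, 4.51-fold less than Tfrc.

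Slc4a1 encodes band 3, the anion exchanger of the red cell membrane (ENSMUSG00000006574, chr11:102348824-102366203, minus strand). It had 23.86 TPM in replicate 1 on 2840 counts and 23.52 TPM in replicate 2 on 3334 (mean 23.7 ± 0.240 TPM, SD, n = 2), with overlapping intervals of 23.12 to 26.10 TPM and 22.87 to 25.57 TPM. Band 3 was the highest of the 3 family members examined: Slc4a1 stood 1.82-fold above Slc4a2 (11.25 and 15.0 TPM), which many cell types express, and 4.52-fold above Slc4a3 (4.85 and 5.49 TPM), known from brain and heart. The 11.25 TPM of Slc4a2 in replicate 1 lay just below its own deposited interval, 11.47 to 15.76 TPM. Ank1, the ankyrin that ties band 3 to the skeleton, had 1.81 and 2.17 TPM, 11.4-fold less than Slc4a1. Its 1.81 TPM in replicate 1 also lay below its interval, 1.907 to 3.013 TPM. The printed TPM can thus fall outside the interval deposited beside it.

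Epb42 encodes protein 4.2, which binds band 3 on the inner face of the membrane (ENSMUSG00000023216, chr2:121017891-121037072, minus strand). It had 5.36 TPM in replicate 1 on 325 counts and 4.32 TPM in replicate 2 on 316 (mean 4.84 ± 0.735 TPM, SD, n = 2), with overlapping intervals of 4.69 to 7.27 TPM and 3.88 to 5.78 TPM. Its partner Slc4a1 was 4.84-fold higher. Protein 4.2 belongs to the transglutaminase family without being an active enzyme, and Tgm2, an active relative, had 4.93 and 4.47 TPM and was not separated from it (Epb42 1.03-fold over Tgm2).

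Alas2 encodes the erythroid form of the enzyme that starts heme synthesis (ENSMUSG00000025270, chrX:150547375-150570638, plus strand). It had 41.2 TPM in replicate 1 on 2091.18 counts and 41.78 TPM in replicate 2 on 2477.86 (mean 41.5 ± 0.410 TPM, SD, n = 2), with intervals of 39.00 to 43.10 TPM and 39.50 to 43.48 TPM. Alas1, the form used outside the red cell lineage, had 45.21 and 43.80 TPM and was not separated from Alas2, whose level was 0.93-fold that of Alas1. In whole midbrain RNA, the erythroid and the general form were thus within the width of their intervals. Fech, which puts iron into the finished ring, had 37.5 and 33.98 TPM, and Alas2 was 1.16-fold higher and separated. Alas2 is the only member that overlaps other annotated genes. It lies within Apex2, on the opposite strand (chrX:150519519-150589868, 15.18 and 16.16 TPM), which shares 311 of the 2403 exonic bases of Alas2, and it also overlaps Mir3620. Strand use in the counting is not stated, so the level of Alas2 is uncertain by what Apex2 could add.

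**Figure D2:**
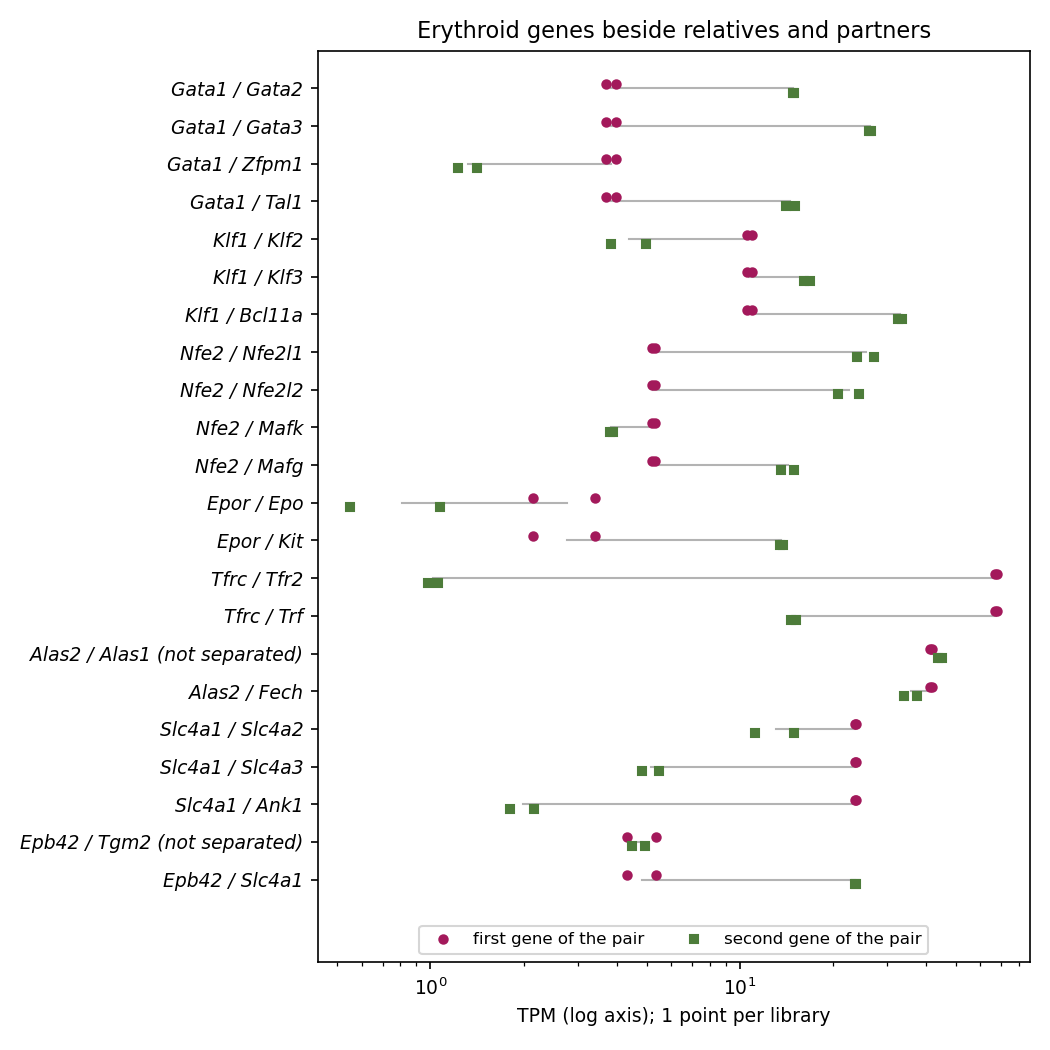
TPM on a log axis for each member (circles, first name) and a relative, partner or ligand (squares, second name), 1 point per library, with a line between the means. The members were the higher gene in 10 pairs and the lower in 10, and the 2 pairs marked as not separated are Alas2 with Alas1 and Epb42 with Tgm2.

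Of the 22 pairs with relatives, partners and ligands, 20 were separated in both libraries. The heme, iron and membrane genes led where they were separated (Tfrc, Slc4a1 and Alas2 over all their separated partners), apart from Epb42, which lay below Slc4a1. The regulators and Epor lay below Gata2, Gata3, Tal1, Klf3, Bcl11a, Nfe2l1, Nfe2l2, Mafg and Kit, and above Zfpm1, Klf2, Mafk and Epo. These counts describe pairs chosen by name, and many of the partners are also expressed outside blood.

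The transcript tables split each gene over its annotated transcripts, and all 8 genes had the same leading transcript in both libraries, as did 91.4% of the 9585 detected genes with more than 1 transcript. Klf1 and Epor have 1 annotated transcript each, so the statement rests on the other 6. Slc4a1-201 held 100% and 99.52% of its gene in replicates 1 and 2, and Gata1-201 held 97.56% and 97.68%. Nfe2-201 held 76.83% in replicate 1 and 64.13% in replicate 2, with Nfe2-205, the next, at 19.67% and 18.37%. The intervals of Nfe2-205 reached near 0 (0.0742 to 1.71 TPM and 1.54e-05 to 1.57 TPM), so the split of Nfe2 is imprecise. These genes were carried by protein-coding transcripts almost alone.

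Tfrc differed from them. Tfrc-201, the full coding transcript, held 67.53% in replicate 1 and 64.73% in replicate 2, and 31.5% ± 1.21 (SD, n = 2) of Tfrc was assigned to transcripts annotated as retained introns. The largest of these, Tfrc-204, held 23.52% and 24.55%. It carries the same 4 iron-responsive matches printed above, while Tfrc-205, at 7.17% and 7.85%, holds none. Counting coding transcripts alone, Tfrc had 47.22 TPM in replicate 1 and 45.39 TPM in replicate 2, still the highest of the 8 genes. Total RNA includes unspliced RNA, and the part of it in the retained-intron share was not tested.

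Epb42 was the only member led by a transcript without a coding region. Epb42-206, a processed transcript, held 34.44% in replicate 1 and 49.05% in replicate 2, ahead of the coding Epb42-202 at 24.13% and 20.51%. By expected counts, which do not divide by length, Epb42-202 led instead, with 139.02 and 114.05 counts against 81.65 and 112.29 for Epb42-206. Coding transcripts made up 31.4% and 30.03% of Epb42 and came to 1.68 TPM in replicate 1 and 1.3 TPM in replicate 2. On coding transcripts alone Epb42 (mean 1.49 TPM) was therefore the lowest of the 8 genes, below Epor. For each of Epb42-206 and Epb42-202, the intervals overlapped between the libraries. Set against each other, the 2 transcripts overlapped in replicate 1 (1.08 to 2.74 TPM and 0.654 to 1.65 TPM). They lay apart in replicate 2 (1.43 to 2.88 TPM and 0.403 to 1.22 TPM). The split of a gene with few reads over 7 transcripts is imprecise.

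Alas2-201 held 84.97% of Alas2 in replicate 1 and 75.3% in replicate 2, and Alas2-202 held 13.61% and 21.02%. The intervals of each overlapped between the libraries. Alas2-202 lacks the first 84 bases of Alas2-201, its last 16 bases, and 45 coding bases at chrX:150552959-150553003. It starts inside the hairpin match, so all but the first base of the printed Alas2 sequence is present in both coding transcripts. The TPM of Alas2 thus came almost wholly from transcripts that carry the loop and its paired bases (97.45% of it on average lay on coding transcripts).

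**Figure D3:**
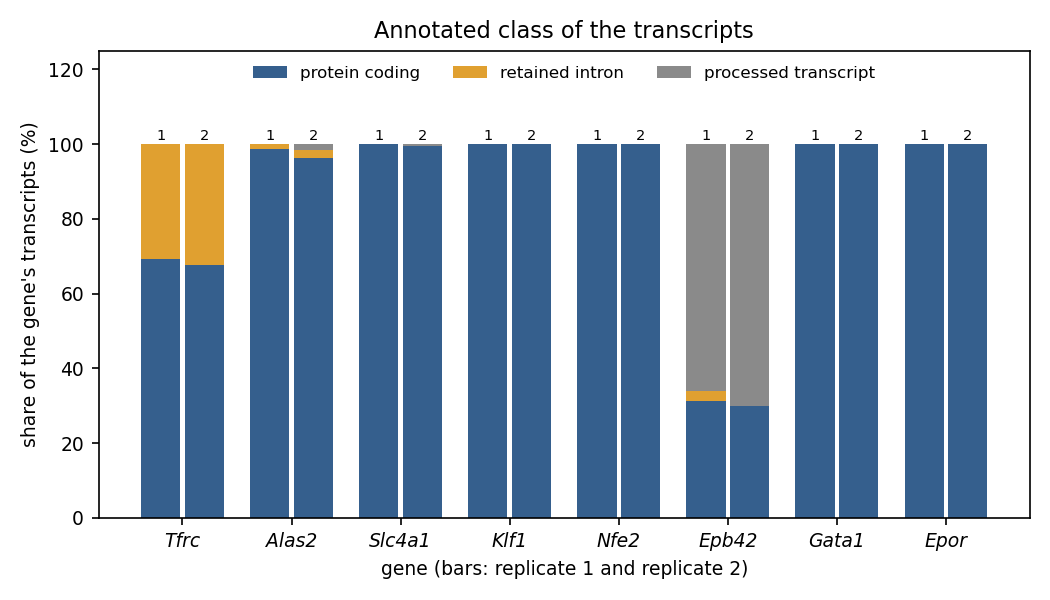
Share of each gene's transcripts (percent of the gene's TPM) by annotated class, with replicate 1 as the left bar and replicate 2 as the right bar of each gene. Retained introns take 30.69% and 32.4% of Tfrc, and processed transcripts take 66.16% and 69.98% of Epb42, while the other genes are almost all protein coding.

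Erythroid promoters are known to combine sites for Gata1 with CACC boxes, which Klf1 binds. The promoters of Klf1, Epor and Alas2 are shown because these 3 windows held the GATA letters closest to the RefSeq start site. RefSeq windows on GRCm38.p6, from 250 bases before to 50 after a start site, were available for 6 of the 8 genes, in 7 windows. The GATA letters searched were AGATAA with its variant AGATAG, and TGATAA with its variant TGATAG, on both strands. They occurred in 4 of the 7 windows (Klf1, Epor, Alas2 and Epb42), beside 29.8% of 32851 windows of all genes. The CACC letters CCNCNCCC occurred in 5 of 7, in Epor, Alas2, Gata1 and both windows of Tfrc, beside 49.5% of all windows. The NF-E2 core TGAGTCA occurred in 0 of 7, beside 5.2%. Matches are letters in a window and were not tested as binding sites, and 7 windows are too few to set against those shares. Each stretch stops before the first start annotated in its window, capitals mark GATA matches (read on the other strand) and, in Epor, also the CACC matches, which overlap each other.
Klf1, chr8:84901732-84901927, plus strand: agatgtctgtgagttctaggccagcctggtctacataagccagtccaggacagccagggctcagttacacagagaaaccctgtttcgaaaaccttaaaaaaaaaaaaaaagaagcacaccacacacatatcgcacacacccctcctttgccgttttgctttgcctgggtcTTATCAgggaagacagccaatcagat
Epor, chr9:21963577-21963826, minus strand: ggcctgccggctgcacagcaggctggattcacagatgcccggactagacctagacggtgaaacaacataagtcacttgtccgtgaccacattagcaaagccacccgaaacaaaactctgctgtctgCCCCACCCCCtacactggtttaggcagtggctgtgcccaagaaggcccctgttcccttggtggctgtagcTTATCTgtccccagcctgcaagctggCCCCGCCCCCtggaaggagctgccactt
Alas2, chrX:150547167-150547374, plus strand: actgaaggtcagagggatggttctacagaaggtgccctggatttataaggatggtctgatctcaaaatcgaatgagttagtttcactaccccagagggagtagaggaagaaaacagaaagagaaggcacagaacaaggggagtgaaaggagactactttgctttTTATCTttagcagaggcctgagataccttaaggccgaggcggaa

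Counted from the RefSeq start, with negative numbers before it, the GATA match of Klf1 lies at -80 to -75, that of Epor at -54 to -49 and that of Alas2 at -86 to -81. The GATA match of Epb42, not shown, lies at -226 to -221 by the same count. It is nonetheless within the 55 bases before the first start annotated in its window. The 4 CACC matches of Alas2 lie between its annotated starts and are not in the stretch shown. The window of Gata1 held 3 CACC matches and no GATA letters.

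The 2 pools were compared gene by gene with a two-sided exact binomial test on rounded expected counts, adjusted by Benjamini-Hochberg over 17148 genes, which compares the reads of 2 libraries and no conditions. None of the 8 genes (0) passed an adjusted p under 0.05 with a 2-fold difference, beside 2.96% of all genes tested, so the members' count is near that background. At an unadjusted p under 0.05 there were 2 of 8, beside 44.0% of all genes. Called by edgeR's exact test with an assumed coefficient of variation of 0.1 were 0 of 8, beside 155 of the 17148 genes. So few calls among all genes leave that 0 near the background too. An adjusted p under 0.05 alone was reached by Epor and Epb42, 2 of 8, beside 35.5%. Scaled to the spike-ins, 1 of 8 reached it, and Epb42 no longer did (adjusted p = 0.0975 by the exact binomial test). The share of all genes under that scaling is not reported here. The counts of all genes differed between the pools by more than sampling noise, with a chi-square of 10.3 per degree of freedom.

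Epor was lower in replicate 1 by 1.6-fold (log2 ratio of replicate 1 over replicate 2 of -0.68, adjusted p = 0.000671 by the exact binomial test). It was the only one of the 8 whose intervals stood apart, beside 20.0% of all genes tested, 22.4% of detected genes and 9.25% of genes whose summed count lay from 200 to below 400, as that of Epor did. It was also the only one past 1.5-fold, beside 9.88% of all genes tested and 8.85% in that count range. Allowing for spread between replicates, edgeR's exact test gave Epor an adjusted p of 0.38, so with a coefficient of variation of 0.1 assumed between pools its difference did not pass. Epb42 was higher in replicate 1 by 1.22-fold (log2 ratio 0.29, adjusted p = 0.0373 by the exact binomial test), with overlapping intervals. Its edgeR exact test gave an adjusted p of 1.0.

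The other 6 genes differed by less than 1.2-fold, as did 83.0% of detected genes. Their log2 ratios ran from 0.00 for Alas2 to 0.10 for Gata1, with adjusted p between 0.137 for Tfrc and 0.982 for Alas2 (exact binomial test). In all, 7 of the 8 ratios were above 0, but scaled to the spike-ins only 2 were, those of Epb42 and Gata1. The direction of the small ratios of Tfrc, Alas2, Slc4a1, Klf1 and Nfe2 is thus set by the scaling. The median log2 ratio of the 8 genes was 0.04, beside -0.01 over all genes tested.

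**Figure D4:**
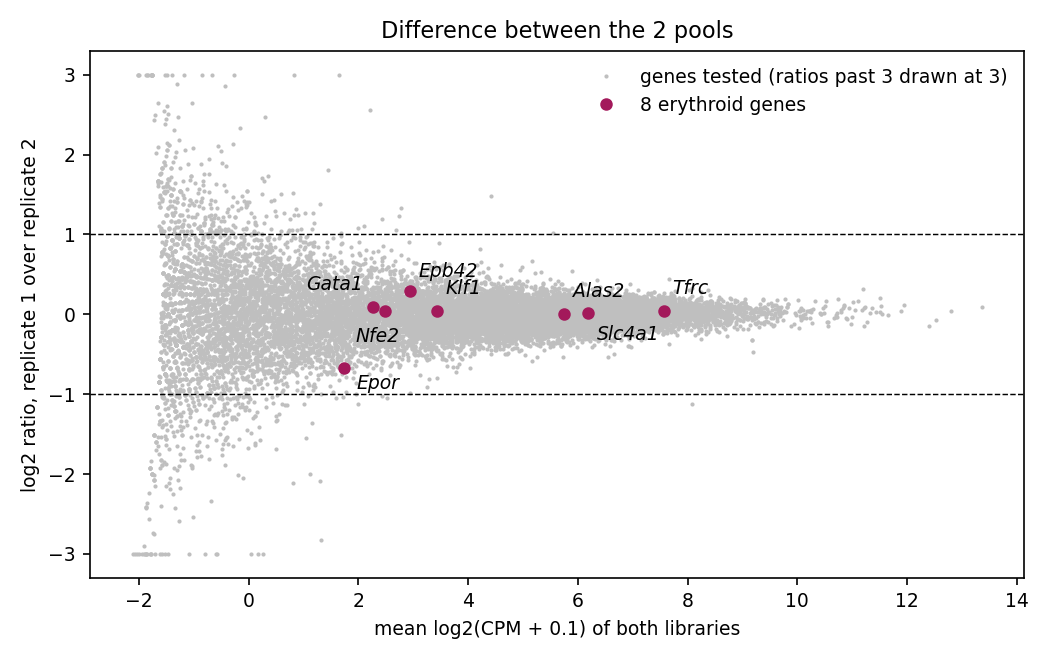
Log2 ratio of replicate 1 over replicate 2 (TMM-scaled counts) against mean level, log2(CPM + 0.1), for 17148 genes in grey and the 8 erythroid genes in colour, with dashed lines at a 2-fold difference. Epor, at -0.68, is the member farthest from 0, and the other members lie between 0.00 and 0.29.

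The globins give a measure of red cell RNA in the same libraries. The 7 globin genes summed to 20309.9 TPM in replicate 1 and 20332.6 TPM in replicate 2, led by the embryonic genes Hbb-y (8311 TPM) and Hba-x (2485 TPM) and by Hba-a2 (4408 TPM). The 8 members summed to 160.8 and 159.72 TPM, which is 7.917 and 7.855 TPM per 1000 globin TPM. Tfrc alone made up 42.4% and 42.0% of that sum, and without it the mean was 4.558 per 1000. Per 1000 globin TPM, Alas2 had 2.029 and 2.055 TPM, Slc4a1 had 1.175 and 1.157, and Klf1 had 0.5382 and 0.5179. Nfe2 had 0.2555 and 0.2621, Epb42 had 0.2639 and 0.2125, and Gata1 had 0.196 and 0.182. Epor had 0.1054 and 0.1677. Because the globin sums were nearly equal, these values restate the TPM, and Epor again varied most between the pools. Tfrc, also used by cells outside blood, need not stem from the cells that hold the globins, and its share from each was not tested.

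The members were then set beside other genes of their pathways, in lists chosen by name. Of 104 other genes in 6 erythroid lists, 95 reached 1 TPM in both libraries, with a median of 13.2 TPM over the list, against 7.995 TPM for the 8 members. All 14 heme synthesis genes reached 1 TPM (median 33.7 TPM), with Tmem14c, a mitochondrial porphyrin transporter (147 TPM), and the pathway enzyme Urod (69.4 TPM) among the highest. Alas2, at 41.5 TPM, lay above that median and below both. Of 14 iron genes 12 did (median 15.1 TPM), led by the ferritin chains Ftl1 (4135 TPM) and Fth1 (1127 TPM) and by Ireb2, an iron regulatory protein (50.9 TPM). Tfrc exceeded all of them but the ferritins.

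Of 23 other membrane and skeleton genes 22 reached 1 TPM (median 7.50 TPM), led by Cd24a (413 TPM), the skeleton protein Epb41 (161 TPM) and the glucose transporter Slc2a1 (123 TPM), all of which other cells express. Slc4a1 lay above the median of that list and Epb42 below it. All 23 other transcription factors and cofactors did (median 14.3 TPM), led by Tcf3 (112 TPM), Ldb1 (58.8 TPM) and Bcl11a (33.0 TPM), and Gata1, Klf1 and Nfe2 all lay below that median. Of 13 genes of erythropoietin and stem cell factor signalling 11 did (median 8.595 TPM), led by the survival factor Bcl2l1 (93.5 TPM), Kit (13.6 TPM) and the adaptor Gab1 (13.5 TPM). Epor lay below that median. Of 18 red cell enzymes and maturation genes 14 did (median 12.6 TPM), led by the peroxidase genes Prdx2 (1009 TPM) and Gpx1 (630.3 TPM) and the mitophagy receptor Bnip3l (341 TPM).

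Between the pools, 102 of the 104 could be tested and 1 was called, against 0 of the 8 members and 2.96% of all genes. That gene was Trim58, a ubiquitin ligase of late red cell precursors, which had 27 counts in replicate 1 against 5 in replicate 2 (log2 ratio 2.47, adjusted p = 6.93e-05 by the exact binomial test). An adjusted p under 0.05 alone was reached by 42 of the 102, beside 35.5% of all genes tested, and the median log2 ratio of the 102 was 0.00.

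**Figure D5:**
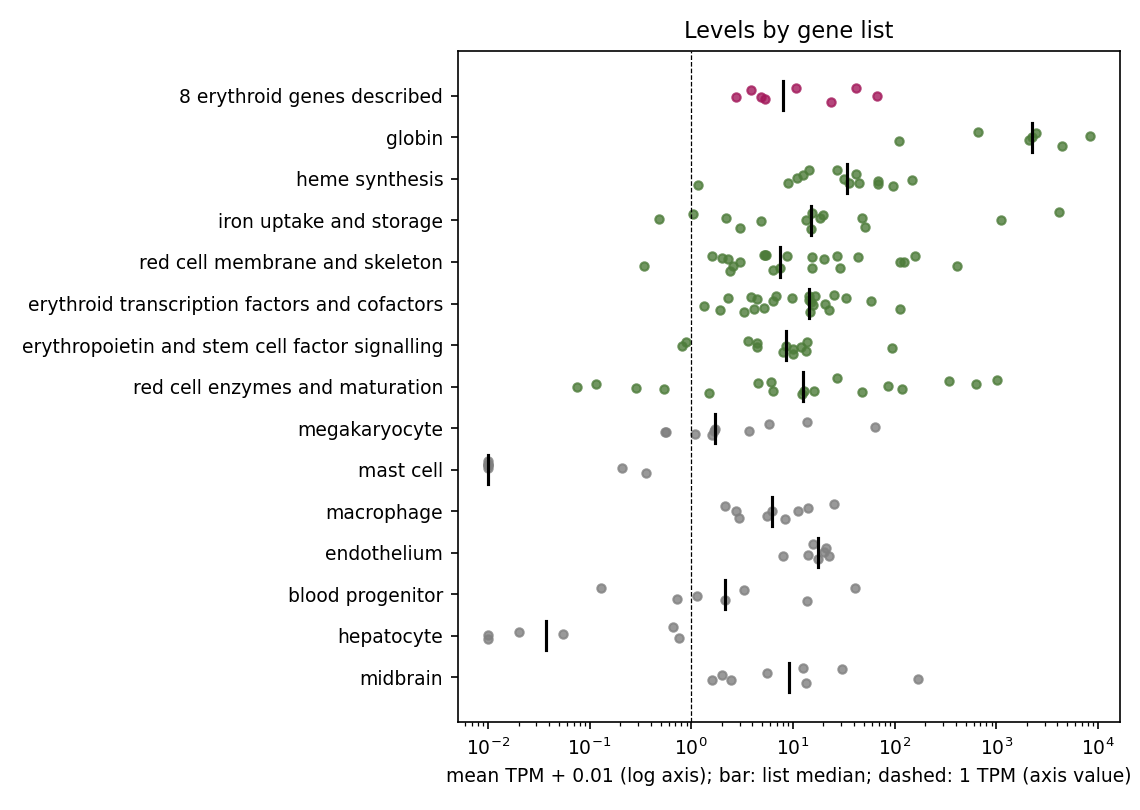
Mean TPM over both libraries on a log axis (0.01 added) for the 8 genes, 7 lists of other erythroid genes and 7 lists of cell type markers, 1 point per gene, with the median of each list as a bar and a dashed line at 1 TPM. The 8 genes lie between 2.775 and 67.6 TPM, far below the globins, whose median is 2231 TPM.

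Markers of other blood and tissue cells were examined beside the members. As background, Gata1 and Nfe2 also act in megakaryocytes, and Gata1 in mast cells. Of 10 megakaryocyte markers 8 reached 1 TPM, with a sum of 90.34 TPM in replicate 1 and 100.17 TPM in replicate 2, led by Pf4 (59.75 and 69.76 TPM), Ppbp (14.89 and 12.76 TPM) and Gp1bb (5.88 and 5.71 TPM). The part of these cells in the levels of Gata1 and Nfe2 was not tested. Of 7 mast cell markers 0 reached 1 TPM, with sums of 0.56 and 0.54 TPM led by Hdc and Cpa3. Cma1, Mcpt4, Tpsb2, Ms4a2 and Fcer1a had 0 counts in both libraries, which allows up to 0.0772 CPM in replicate 1 and 0.0653 CPM in replicate 2. The 7 blood progenitor markers summed to 62.84 and 60.09 TPM, with 4 at 1 TPM, led by Cd34, which endothelium shares, Kit and Spi1. Flt3, with 21 counts in replicate 1 and 5 in replicate 2, was called between the pools. All 9 macrophage markers (77.95 and 79.49 TPM, led by C1qb, C1qc and C1qa) and all 7 endothelial markers (118.13 and 119.94 TPM, led by Cldn5, Esam and Kdr) reached 1 TPM. Of 6 hepatocyte markers 0 did (sums of 1.49 and 1.4 TPM, led by Ttr, Apoa1 and Apob), and Alb and Serpina1a had 0 counts in both libraries. The hepatocyte markers bear on liver cells only, and where the red cells were made was not tested.

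For the labelled tissue, 8 midbrain markers were read, which all reached 1 TPM, as did 32.1% of all genes. They summed to 236.07 TPM in replicate 1 and 241.27 TPM in replicate 2, led by Otx2 (169.43 and 171.27 TPM), Pax3 and Lmx1a. No genes of neighbouring brain regions were set beside them, so these levels do not tell midbrain from those regions. The tables held 38884247 and 45975100 expected counts on genes, of which the 8 members took 0.0352% and 0.0346%. Precision follows from the members' own counts: Tfrc rested on 7492 and 8640 reads, and Epor on 99 and 189. With only 2 libraries no exact test over samples can reach significance, so levels carry their SD and no p.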

How the data were processed

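RNA of 2 midbrain pools was measured. The authors deposited expected counts per the file headers, which are estimated read numbers and need not be whole. Per the file headers they also deposited TPM, as maximum likelihood (printed here) and posterior mean, and FPKM, both taken over every row, so spike-ins took 15.2% and 14.8% of TPM. The TPM intervals deposited beside them were read as signal bounds, at a level the sources do not state. For transcripts, the authors deposited the percent of the gene that each holds. The notes beside the tables give assembly mm10 and annotation M4. The aligner, the quantifier, their versions and the use of strand were not given in the sources used here. Per the labels a Smart-seq protocol, which amplifies cDNA, is cited. The limits therefore cover counting error only. Neither they nor the intervals were taken to cover amplification or spread between pools.

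Symbols, transcripts and coordinates came from GENCODE M21 on the same assembly by identifier without version, and 42462 of 43346 genes had a symbol. Further rows, 96 of spike-ins, 1 of phiX and 26248 named by a bare number (4.44 and 13.25 counts in all), entered no test. Depth was 41760197 and 49256468 counts. The limit of 3 counts that a count of 0 allows is 0.0772 and 0.0653 CPM of the counts on genes. Rounded counts were scaled by TMM (edgeR 4.0.16 in R 4.3.3). Testing needed a summed count of 20, and log2 ratios had a prior count of 1. Folds between genes used TPM + 0.1. Alternatives covered other scalings (totals, spike-ins, DESeq2 1.42.0), filters, units and pseudocounts, and either library alone.

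The members, gene lists and pairs were chosen with earlier results of these data known. The text names all members, both genes of each pair, and of each list the 3 highest by mean TPM, each gene called between the pools and each at 0 counts in both; some genes that this rule takes are not reported here. Counts for replicate 1 against replicate 2 were simulated with sampling noise only, and 17172 genes were tested. Changed genes were drawn from those with a summed count of at least 100. Of 100 genes changed 3-fold and of 100 changed 8-fold, 100% were called, with 2 false calls. The real pools differed by more than sampling noise, so the simulation does not give the false calls to expect between them. Promoter sequences are from RefSeq (GRCm38.p6). The software was Python 3.11.15 with scipy 1.17.1, numpy 2.4.6, matplotlib 3.10.9 and pandas 2.3.3.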

Additional observations from a re-analysis of the deposited data

How the results depend on the processing

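All 8 members stayed detected under posterior mean TPM, FPKM, 0.5 TPM, 20 counts, either library alone and, added after seeing the data, coding transcripts alone; at 5 TPM 5 did. The 508 genes called became 82 at a summed count of at least 100, 6090 by adjusted p alone, 155 by edgeR's exact test and 3426 by intervals apart. The members called, 0 in the analysis reported, became 2 by adjusted p alone and 1 by intervals apart. Mean member TPM per 1000 globin TPM, 7.886, became 8.093 on posterior means, 46.35 on counts and 4.558 without Tfrc. It was 7.855 without replicate 1 and 7.917 without replicate 2. Scaled to spike-ins, log2 ratios turned to -0.015 for Tfrc, -0.054 for Alas2, -0.041 for Slc4a1, -0.014 for Klf1 and -0.015 for Nfe2. Spike-in scaling moved the median of all genes from -0.007 to -0.065. By total counts Alas2 turned to -0.003, and as ratios of deposited TPM Alas2 turned to -0.02 and Nfe2 to -0.038. Epor, Epb42 and Gata1 kept their direction under these scalings, and the adjusted p of Epb42 by the exact binomial test ran from 0.0341 with DESeq2 size factors to 0.0975 with spike-in scaling. Coding transcripts alone moved mean TPM to 1.49 for Epb42 and 46.3 for Tfrc. The cause of these shifts was not tested beyond the alternatives' own construction. The count of separated pairs stayed at 20 without either replicate, and was 15 when a 2-fold difference of posterior means was asked for. No paired analysis was possible because there is 1 group. Leaving out a replicate ends the comparison between pools, which needs both. Depth limits Epor, Gata1 and Nfe2 most.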
